A study of Mus musculus with 6 samples.

Results

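The genes described are 8 that act in the uptake of fatty acids from circulating lipoproteins, chosen by name from the 56980 genes listed in single-nucleus RNA-seq count tables of mouse white adipose tissue. They are Lpl, Gpihbp1, Angptl4, Vldlr, Cd36, Slc27a1, Fabp4 and Acsl1. They were picked by name with earlier results of these data known, so counts over the 8 are a description. All 8 were detected.

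Lipoprotein lipase (Lpl) is the enzyme that releases fatty acids from the triglycerides of circulating lipoproteins. It is secreted by the cells around the vessel, such as adipocytes, and Gpihbp1 of capillary endothelial cells binds it and carries it to the capillary lumen. Angptl4 is a secreted protein that inactivates the lipase, and Vldlr is a receptor that binds triglyceride-rich lipoproteins. The fatty acids released cross endothelial cells and enter adipocytes with the help of Cd36, a membrane fatty acid translocase, and Slc27a1 (FATP1), a transport protein. Inside the cell Fabp4 carries them, and Acsl1 joins them to coenzyme A, after which they can be stored as triglyceride.

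The study compared white fat of young and old female C57BL/6J mice, with no genetic change and no treatment. The groups used were subcutaneous (inguinal) fat, called SAT, at 2 and at 24 months of age, and visceral (gonadal) fat, called VAT, at 24 months, with 2 libraries each. Visceral fat of the young mice was not analysed here. The sample labels give the older age as 24 months, and the design text gives it as 26 months. Both depots of the old mice may come from the same animals, as the study sampled 2 mice per age, but the sources used here do not say which libraries share a mouse.

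The 6 tables held 6158 to 11341 barcodes and 8061862 to 16226690 unique molecular identifiers (UMIs, each standing for 1 captured RNA molecule) per library. After filtering, 27074 of 50859 barcodes were kept as nuclei, 2490 to 5776 per library. Although the labels name the cell type as adipocytes, marker genes put 7372 of these nuclei in an adipocyte class, 763 among blood vascular endothelial cells, 1282 among macrophages and 1595 among fibro-adipogenic progenitors (FAPs, the stromal cells that include adipocyte precursors). In the adipocyte class all 10 adipocyte markers were detected in every library, with a summed level of 13351 to 17525 CPM (the UMIs of a gene out of every 1000000 UMIs of that class and library), while the blood vascular markers summed to between 54.2 and 135 CPM.

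Some properties of the libraries touch the values below. In the second replicate of SAT at 24 months, T cells, which are not known as a source of these proteins, held 1331 CPM of Fabp4 and 238 CPM of Lpl, against 192 to 346 CPM and 43.7 to 120 CPM in the other 4 libraries with enough T cells. In the second replicate of VAT, adipocytes were 156 nuclei and held 4.21% of all UMIs, and markers of ovary or oviduct summed to 660 CPM in its endothelial nuclei against 0 to 74.5 CPM elsewhere. Endothelial nuclei of SAT at 2 months numbered 32 and 25. Libraries shared at most 0.482% of the barcodes of the smaller one.

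By position on the GRCm39 assembly (GENCODE annotation), Lpl lies on chromosome 8 from 69284603 to 69360100 on the plus strand, Gpihbp1 on chromosome 15 from 75468474 to 75471331 (plus), Angptl4 on chromosome 17 from 33992724 to 34000804 (minus) and Vldlr on chromosome 19 from 27193862 to 27231631 (plus). Cd36 lies on chromosome 5 from 17986432 to 18094067 (minus), Slc27a1 on chromosome 8 from 72021095 to 72041866 (plus), Fabp4 on chromosome 3 from 10268785 to 10273737 (minus) and Acsl1 on chromosome 8 from 46924063 to 46990145 (plus). Each interval is that of the whole protein-coding gene, with its exons, introns and UTRs, and nuclear RNA also includes intronic reads where the counting kept them.

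Each gene had its own order of classes, given here as the mean of the libraries with at least 20 nuclei of a class. Classes were named from other genes, and the 8 genes and the related pathway genes took no part in the clustering. The levels are a description, with no test between classes, and they compare classes for 1 gene, not genes with each other, because CPM is not scaled by gene length.

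Lpl was highest in adipocytes, at 2892 ± 1284 CPM (SD, n = 6 libraries), which was 27.2 times its mean level in T cells (4.77 on the log2 scale, or 5.56 in nuclei over 2000 UMIs). FAPs followed at 1388 ± 1496 CPM, blood vascular endothelial nuclei at 1377 ± 1535 CPM and macrophages at 731 ± 470 CPM. All of these neighbours overlapped, since the adipocyte range was 1676 to 5100 CPM and the FAP range 149 to 4279 CPM. The highest value in each of the 4 classes came from the second replicate of SAT at 24 months, the library whose T cells also held the most Lpl.

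Gpihbp1 was highest in blood vascular endothelial nuclei, where it reached 229 and 298 CPM in young SAT, 482 and 1225 CPM in old SAT, and 743 and 78.9 CPM in old VAT. The mean of 509 ± 419 CPM (SD, n = 6) was 110 times that of T cells (6.77 on the log2 scale, or 8.76 without the second SAT library at 24 months), a ratio that rests on few UMIs in T cells. The only other class with a mean over 10.6 CPM was lymphatic endothelium, at 118 ± 136 CPM in 3 libraries, which overlapped the blood vascular range. Blood vascular nuclei held 56.7% to 70.6% of all Gpihbp1 UMIs in 5 libraries and 26.9% in the second VAT library, while they held 0.396% to 8.15% of the UMIs of all genes. Per nucleus thinned to 1000 UMIs, Gpihbp1 was seen in 12.5%, 20%, 30%, 58.0%, 37.3% and 4.72% of blood vascular nuclei in the same library order (28.1%, 24%, 30%, 74.4%, 42.4% and 8.49% unthinned), with median depths of 1296 to 1870 UMIs. T cells, at median depths of 1247 to 1460 UMIs, had it in 0.069% to 2.00% of nuclei (0.069% to 2.50% unthinned).

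Angptl4, the inhibitor of the lipase, was spread over adipocytes at 369 ± 224 CPM, blood vascular nuclei at 301 ± 268 CPM and FAPs at 215 ± 133 CPM (SD, n = 6 each), with each range overlapping the next. It had no UMI in the endothelial nuclei of the first SAT library at 2 months, where a count of 0 allows up to 49.1 CPM. Vldlr had another order, with FAPs first at 190 ± 106 CPM, which was 35.7 times its level in T cells (5.16 on the log2 scale, or 7.63 in nuclei over 2000 UMIs), and adipocytes next at 43.6 ± 18.5 CPM. The T cell level rests on 1 to 17 UMIs per library. Within a library the FAP ratio was 54.6 and 133 in SAT at 2 months and 8.26 in the second VAT library. Mesothelial nuclei were level with adipocytes, at 42.9 ± 54.7 CPM. Both overlapped FAPs, whose lowest value was 62.5 CPM, since adipocytes reached 66.6 CPM and mesothelial nuclei 152 CPM. That lowest value was in the second VAT library, whose FAP class had the lowest FAP marker sum, and the next lowest, 129 CPM, was above all adipocyte values.

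Cd36 was highest in blood vascular endothelial nuclei, at 3330 ± 2439 CPM, followed by adipocytes at 1620 ± 718 CPM and macrophages at 1217 ± 1124 CPM (SD, n = 6 each). FAPs came next at 228 ± 156 CPM, and each class in this order overlapped the next. Slc27a1 differed from Cd36 in its class pattern. It was at 3517 ± 1520 CPM in adipocytes, where its lowest library, at 2210 CPM, was above the highest library of blood vascular nuclei, at 931 CPM.

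Fabp4 was at 12619 ± 9562 CPM in blood vascular nuclei and 7486 ± 2420 CPM in adipocytes (SD, n = 6), which overlapped, while the adipocyte range of 5818 to 12209 CPM did not overlap that of FAPs, 304 to 3782 CPM. Acsl1 was the steadiest of the 8 in adipocytes, at 1622 ± 234 CPM with a range of 1338 to 1943 CPM. Its next class, blood vascular nuclei, was at 282 ± 214 CPM and reached 613 CPM. Adipocytes were thus the only class above every other without overlap for Slc27a1 and Acsl1 among the 8 genes.

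**Figure D1:**
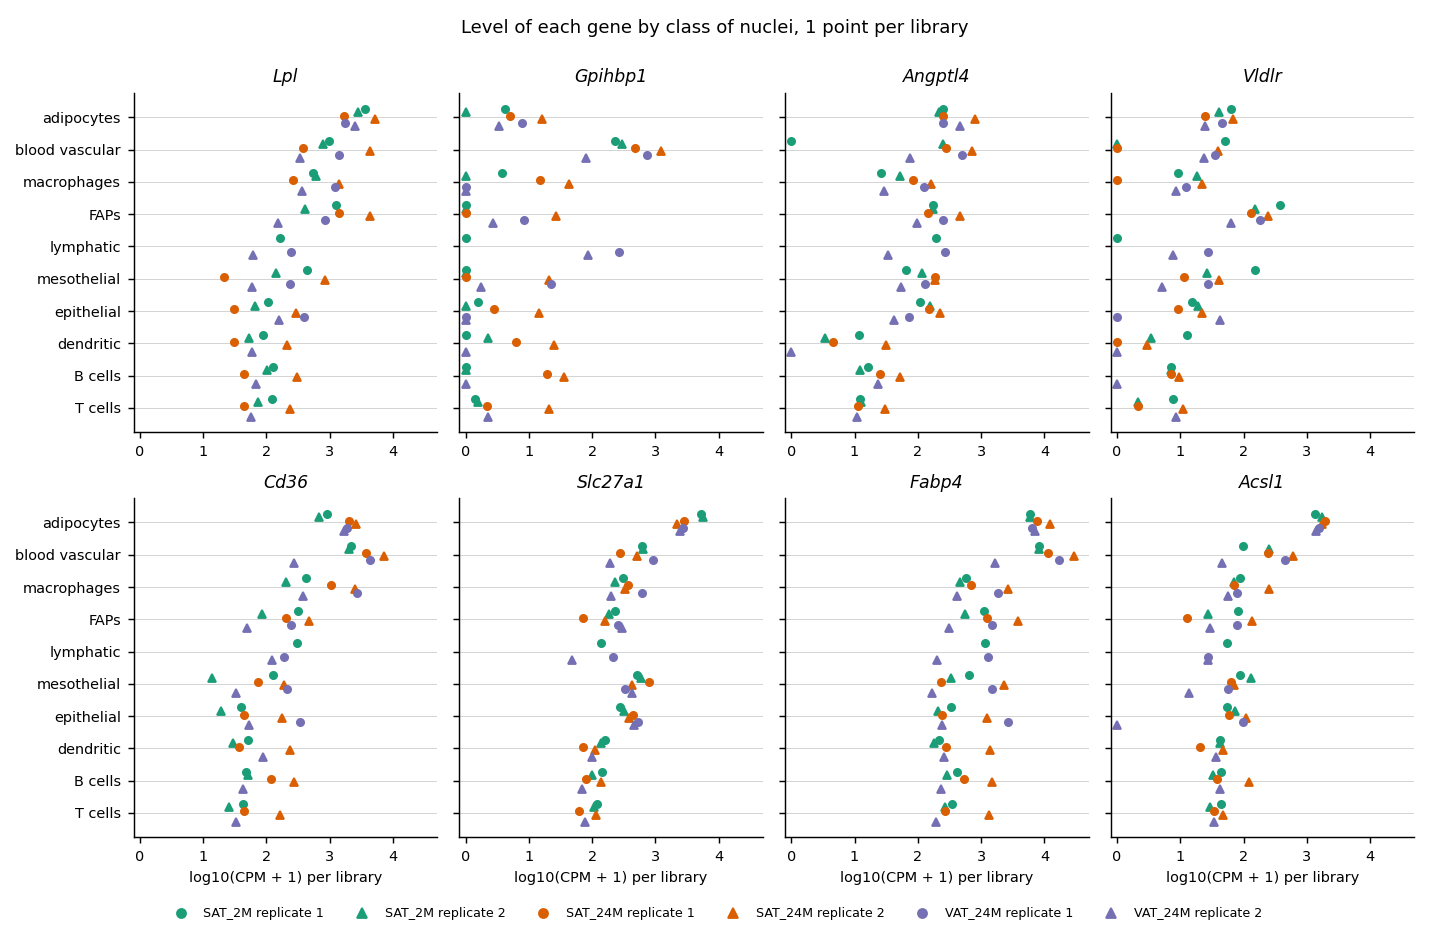
Level of each of the 8 genes as log10(CPM + 1) on the x axis, with 1 point per library in each of 10 classes of nuclei on the y axis, coloured by group. Gpihbp1 stands to the right in blood vascular nuclei, at 78.9 to 1225 CPM, and Slc27a1 and Acsl1 stand to the right in adipocytes, with no overlap with the next class.

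Adipocytes held most of the UMIs of Lpl in every library, from 54.2% to 85.2%, and of Fabp4, from 52.1% to 81.4%. They held 72.3% to 94.0% of the Acsl1 UMIs. For Slc27a1 their share was 72.5% to 91.3% in 5 libraries but 22.5% in the second VAT library, where mesothelial nuclei, the cells that line the abdominal cavity and its organs, held 35.5%. Mesothelial nuclei held 37.7% of the UMIs of all genes in that library and at most 3.94% in the others, and their part in its whole-tissue levels was not tested.

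**Figure D2:**
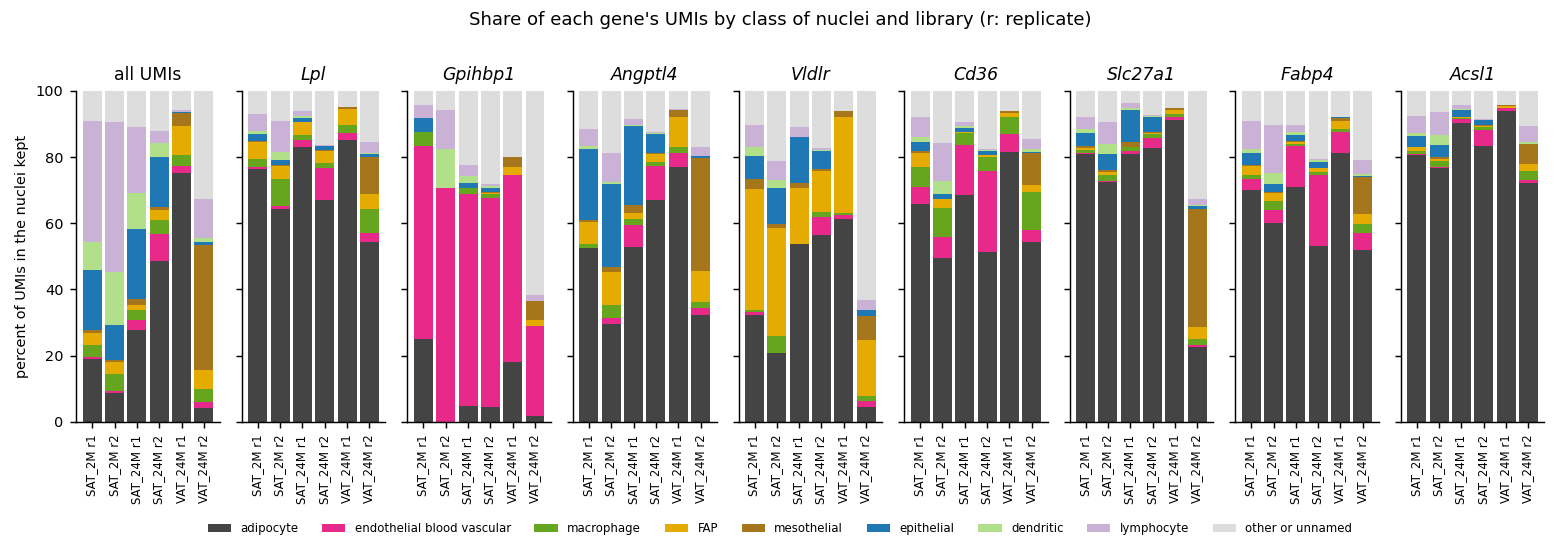
Stacked bars give the percent of UMIs in each class of nuclei on the y axis for the 6 libraries on the x axis, first for all genes and then for each of the 8. Blood vascular nuclei hold 56.7% to 70.6% of Gpihbp1 in 5 libraries, and adipocytes hold 54.2% to 85.2% of Lpl.

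The genes whose pattern was most like that of each main member were found by Pearson's r of log2 levels over 54 sums by class and library, among 12886 genes. These points share libraries, depth and free RNA, so r is a description. Lpl was most like Car3 (r = 0.87), Fabp4 (0.86) and Agmo (0.85). Cd36 was most like Fabp4 (0.91), Pparg (0.86) and Sult1a1 (0.84), of which Pparg was one of the markers used to name adipocytes. For Gpihbp1 they were Car4 (0.91), Adgrl4 (0.91) and Aqp1 (0.91), with Adgrl4 among the markers used to name blood vascular nuclei. Angptl4 was most like Prelp (0.82), Ghr (0.82) and Pxdn (0.82). Lpl itself had r = 0.81 with Cd36, 0.66 with Angptl4 and 0.32 with Gpihbp1, its endothelial partner.

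The first comparison asked how levels in SAT differed between 24 and 2 months. A gene passed the test, and is said to be called, where its adjusted p was under 0.05. In adipocytes 1 of the 8 genes did, Cd36, the fatty acid translocase. Its level was 902 and 666 CPM in the 2 libraries at 2 months and 2028 and 2575 CPM in those at 24 months, with means of 784 ± 167 and 2301 ± 386 CPM (SD, n = 2 each). Both old libraries lay above both young ones, and Cd36 rose by 1.71 ± 0.31 on the log2 scale (SE) with an adjusted p of 0.0038 by edgeR's quasi-likelihood test. The background in this comparison was high, as 14.1% of the 12970 genes tested were called (868 higher and 961 lower, or 657 and 1359 with library-size scaling, which put the median of all genes at -0.18), so 1 called gene of 8 is near the share of all genes.

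Without the second library at 2 months, the Cd36 change was 1.51 with an adjusted p of 0.0913, in a fit that called 483 genes. With any 1 library left out it ran from 1.51 to 2.00, and over the alternatives that kept all libraries from 1.53 to 1.96 with an adjusted p of at most 0.00684. Among nuclei thinned to 1000 UMIs, Cd36 was seen in 49.6% and 39.1% of adipocytes at 2 months and in 79.9% and 87.1% at 24 months (68.8%, 56.2%, 91.3% and 94.8% unthinned), at median depths of 1566 to 1944 UMIs. T cells of the same libraries had it in 4.21%, 2.11%, 3.77% and 15% of nuclei (5.59%, 2.98%, 5.46% and 21% unthinned). The Cd36 level in adipocytes was 21.5 and 26.8 times that in T cells of the same library at 2 months, and 46.4 and 15.9 times at 24 months, so this ratio overlapped between ages.

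The difference was present in each of the 4 clusters that held most adipocytes, which is a description, since clusters share libraries. In the cluster with the lowest share of mitochondrial RNA in these libraries, Cd36 was at 759 and 592 CPM at 2 months and 2046 and 2332 CPM at 24 months. Its smallest contrast was in the cluster richest in mitochondrial RNA, with 1168 and 946 CPM against 1924 and 2918 CPM. Mitochondrial genes made up 1.27% and 0.777% of adipocyte UMIs at 2 months and 2.33% and 3.04% at 24 months. Markers of T and B cells in the adipocyte class also differed between ages. T cell markers summed to 273 and 501 CPM at 2 months and 56.3 and 33.6 CPM at 24 months, and B cell markers to 271 and 407 CPM against 76.9 and 44.4 CPM. FAP markers, at 2245 and 1686 CPM against 2077 and 4622 CPM, overlapped between ages and were highest in the second old library. The part of these markers in the Cd36 difference was not tested. The levels of Cd36 did not overlap between ages in any of the 4 clusters. The median mitochondrial share was also higher at 24 months in each. In the cluster with the lowest share it was 0.374% and 0.339% at 2 months against 0.595% and 0.772%. The part of mitochondrial RNA in the Cd36 difference was not tested.

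The other transporter, Slc27a1, was at 5165 and 5725 CPM in adipocytes at 2 months and 2854 and 2210 CPM at 24 months. Both old libraries were lower than both young ones, the opposite order to Cd36, but the difference of -0.93 ± 0.31 on the log2 scale had an adjusted p of 0.067. It was past the threshold under 4 alternatives, DESeq2, library-size scaling, the replicate block and nuclei over 2000 UMIs, at -1.12 to -0.91. Over all alternatives it ran from -1.12 to -0.69, and with 1 library left out from -1.09 to -0.69. Fabp4 was at 5818 and 5829 CPM at 2 months and 7592 and 12209 CPM at 24 months, a difference of 0.92 ± 0.34 with an adjusted p of 0.0919. It was called with DESeq2 (0.94), with no filter on low counts (1.19), with the replicate block (0.90) and without the first old library (1.28).

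Among the lipase and its partners, Lpl was at 3551 and 2751 CPM in adipocytes at 2 months and at 1676 and 5100 CPM at 24 months. The old libraries lay on either side of the young ones, and the difference was 0.25 ± 0.44 (adjusted p = 0.746). Angptl4 was at 250 and 212 CPM at 2 months and 253 and 789 CPM at 24 months, with a difference of 1.32 ± 0.44 (adjusted p = 0.0646). It was 0.36 without the second old library, and it was called without the first (1.97), with no filter on low counts (1.60) and with the replicate block (1.10). Both old values of Angptl4 were above both young ones, the first of them by a small margin.

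Vldlr, at 63.1 and 40.0 CPM in young and 24.0 and 66.6 CPM in old adipocytes, overlapped fully. Acsl1 was at 1338 and 1747 CPM at 2 months and 1943 and 1758 CPM at 24 months, a difference of 0.43 ± 0.29 (adjusted p = 0.349), and the lowest old value was just above the highest young one. Gpihbp1 was at 0 to 14.9 CPM in adipocytes, and seen in a share of nuclei like that in T cells, so its values there were at background, although it was called with no filter on low counts (2.71) and without the first old library (3.04). In all, 5 of the 8 genes, Gpihbp1 among them, had an unadjusted p under 0.05 against 30.2% of all genes, and the median difference of all 8 was 0.68 (0.43 without Gpihbp1) against a median of 0.00179 over all genes tested.

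**Figure D3:**
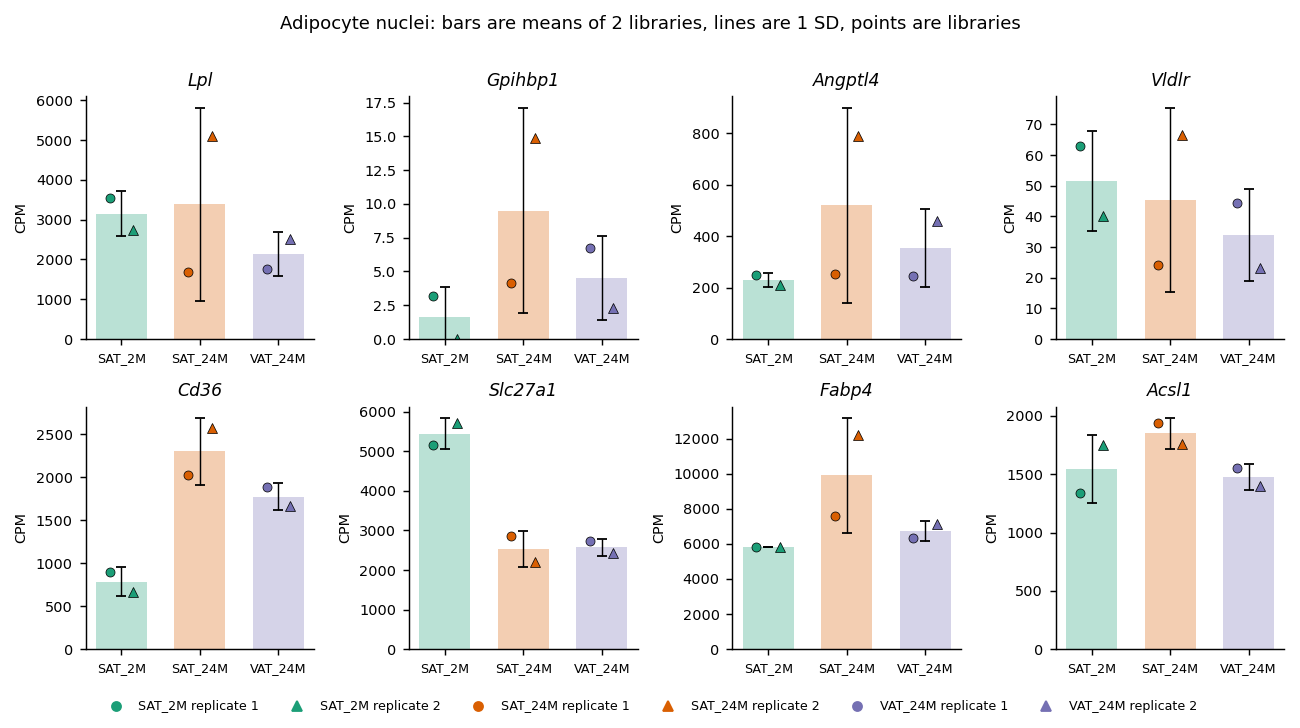
CPM of each gene in adipocyte nuclei on the y axis for the 3 groups on the x axis, with bars for the mean of 2 libraries, lines for 1 SD and points for the libraries. Cd36 is at 666 and 902 CPM at 2 months and at 2028 and 2575 CPM in the old SAT libraries, and Slc27a1 has the opposite order.

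In blood vascular endothelial nuclei of SAT, 6 of the 7 genes tested had higher means at 24 months, but none passed the test. Here 0.0364% of 5498 genes were called (478 had an unadjusted p under 0.05). None of the 8 genes was called by DESeq2 either, which called 23 genes, and 0 of the 7 had an unadjusted p under 0.05 by edgeR. Vldlr, at 0 to 49.1 CPM over all libraries, was below the filter on low counts.

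Gpihbp1 in these nuclei was at 229 and 298 CPM at 2 months and 482 and 1225 CPM at 24 months, so the ages did not overlap, with a difference of 2.00 ± 0.94 on the log2 scale and an adjusted p of 0.574 by edgeR. The difference ran from 1.07 to 2.69 with 1 library left out. Cd36 was at 2194 and 1987 CPM at 2 months and 3796 and 7324 CPM at 24 months, a difference of 1.69 ± 1.00 (adjusted p = 0.635). With 1 library left out the Cd36 difference ran from 1.05 to 2.27. Fabp4 was at 8238 and 8344 CPM in young and 11207 and 29330 CPM in old vessels, a difference of 1.58 ± 0.98. In such fits the Fabp4 difference ran from 0.63 to 2.29. Angptl4 had the largest difference, 2.48 ± 1.24 (adjusted p = 0.586), from 0 and 248 CPM in young to 273 and 723 CPM in old endothelial nuclei, and it ran from 1.46 to 10.3 with 1 library left out. For these 4 genes the old libraries were both higher, and the second of them was the higher.

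Lpl was at 966 and 770 CPM in young and 377 and 4401 CPM in old endothelial nuclei, on either side of the young values. Without the first SAT library at 24 months, 103 genes were called in this class, among them Lpl, Gpihbp1, Angptl4 and Fabp4, and Lpl without the second changed sign, from 1.79 to -1.02. The second library also held 7052 CPM of adipocyte markers in its endothelial nuclei and 7139 CPM of FAP markers, against 2342 to 3402 CPM and 1085 to 1523 CPM in the other 3 SAT libraries. Lymphatic markers in this class were at 1474 and 695 CPM in young and 133 and 75.8 CPM in old SAT, and T cell markers at 983 and 1490 CPM against 203 and 60.9 CPM. Mitochondrial genes made up 2.82% and 3.25% of UMIs in young and 4.22% and 6.45% in old endothelial nuclei. The part of all these in the differences was not tested.

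The blood vascular class was not made up of the same clusters in each library. The cluster led by Aqp1 and Gpihbp1 held 1 and 0 nuclei at 2 months, 9 and 140 in SAT at 24 months, and 25 and 2 in VAT. The cluster led by Glycam1, a gene known from high endothelial venules of lymph nodes, held 14 and 13, 14 and 114, and 21 and 73 nuclei in the same order. Its levels of other genes differed widely between libraries, so Glycam1 does not give the vessel type of its nuclei in each. Where enough nuclei allowed a level, Gpihbp1 was at 1879 CPM in the Aqp1 cluster of the second SAT library at 24 months and 2173 CPM in that of the first VAT library. Gpihbp1 was itself a leading gene of that cluster, so its level there is a description. In the same libraries it was at 1511 and 1046 CPM in the Glycam1 cluster. The Glycam1 cluster of the second VAT library held 56.4 CPM of it. Another cluster held 991 CPM in the second SAT library at 24 months. Gpihbp1 was lowest, at 425 and 0 CPM in the same libraries, in the cluster led by Mgp and Eln, matrix genes of larger vessels.

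In macrophages of SAT, Cd36, which in these cells also takes up oxidised lipoproteins, was at 428 and 204 CPM at 2 months and 1061 and 2489 CPM at 24 months. Both old libraries lay above both young ones. The difference was 2.59 ± 0.83 on the log2 scale, with an unadjusted p of 0.0098 and an adjusted p of 0.273 by edgeR. It ran from 2.17 to 2.94 over the alternatives and from 1.82 to 3.20 with 1 library left out. It was called when the 2 age groups alone were fitted (2.61), in a fit that called 197 genes, and with no filter on low counts (2.58), in one that called 239. None of the 6 genes tested was called by edgeR across all 3 groups or by DESeq2, against a background of 0% of 8478 genes by edgeR (960 with an unadjusted p under 0.05) and 23 genes by DESeq2.

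Fabp4 in macrophages was at 568 and 455 CPM at 2 months and 684 and 2698 CPM at 24 months (1.83 ± 0.75, adjusted p = 0.381). Its difference ran from 0.49 to 2.49 with 1 library left out. Angptl4 was at 24.8 and 51.4 CPM in young and 83.7 and 160 CPM in old macrophages (1.79 ± 0.67, adjusted p = 0.346), and Acsl1 at 85.5 and 68.6 CPM against 69.8 and 250 CPM (1.26 ± 0.52, adjusted p = 0.387). With Cd36, these were the 4 members whose unadjusted p was under 0.05. Adipocyte markers in the macrophage class were at 750 and 562 CPM at 2 months and 600 and 1651 CPM at 24 months, and mitochondrial genes made up 3.05% and 2.76% of UMIs against 5.53% and 3.28%. The part of these was not tested.

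One macrophage cluster, led by Mrc1, Retnla and F13a1, genes typical of resident tissue macrophages, held the highest Cd36 levels among clusters with at least 20 nuclei in every library but the first of VAT, where another cluster reached 3541 CPM. In each library 1 or more macrophage clusters were too small for a level. In this one Cd36 reached 1353 and 597 CPM in young SAT, 2464 and 4031 CPM in old SAT, and 3444 and 715 CPM in VAT. This cluster made up 26.7% and 19.4% of macrophage nuclei at 2 months, 30.5% and 54.3% in SAT at 24 months, and 52.3% and 21.1% in VAT. Lpl had another place in SAT, where it was highest in a cluster led by Retnla, Lyz1 and Ccr2, at 2565 CPM in the second library at 2 months and 3562 CPM in the second at 24 months, the libraries with enough of its nuclei for a level.

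In FAPs the largest fitted difference with age among the 7 genes tested was that of Lpl. Its level was 1270 and 398 CPM at 2 months and 1400 and 4279 CPM at 24 months. The groups did not overlap, but the difference of 1.80 ± 0.94 had an adjusted p of 0.554 by edgeR. It ran from 0.74 to 2.83 with 1 library left out. Fabp4 was close behind at 1.62 ± 0.86, so the order of these genes is not settled. Adipocyte markers in the FAP class were at 777 and 485 CPM in young and 506 and 1609 CPM in old SAT, and mitochondrial genes made up 1.80% and 1.72% of FAP UMIs against 3.20% and 3.43%. The part of these was not tested. Vldlr was at 370 and 153 CPM in young and 129 and 241 CPM in old FAPs (-0.42 ± 0.63, adjusted p = 0.852), and the ages overlapped. Of 7 genes tested in FAPs none was called by edgeR or DESeq2 and 0 had an unadjusted p under 0.05, against 0% called of 8255 genes (865 with an unadjusted p under 0.05) and 18 genes called by DESeq2.

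The second comparison set VAT against SAT at 24 months. In adipocytes no member passed the test and none had an unadjusted p under 0.05 by edgeR, and DESeq2 called none. The background was 0.131%, or 17 of 12970 genes, by edgeR and 31 genes by DESeq2. Cd36 was at 1888 and 1661 CPM in VAT against 2028 and 2575 CPM in SAT, lower in both VAT libraries, with a difference of -0.34 ± 0.30 (adjusted p = 0.867). Slc27a1 was at 2729 and 2422 CPM against 2854 and 2210 CPM, within the SAT range, at 0.05 ± 0.31.

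Lpl in VAT adipocytes was at 1752 and 2520 CPM, between the SAT values of 1676 and 5100 CPM, with a difference of -0.63 ± 0.44 (adjusted p = 0.825). Fabp4, at 6339 and 7132 CPM in VAT, was below both SAT values, and the difference was -0.52 ± 0.34 (adjusted p = 0.808). Acsl1, at 1552 and 1395 CPM, was also below both SAT libraries (-0.30 ± 0.29, adjusted p = 0.89). Angptl4 was at 246 and 461 CPM in VAT, Vldlr at 44.5 and 23.3 CPM and Gpihbp1 at 6.71 and 2.33 CPM. For the 8 genes the standard errors of 0.29 to 0.75 on the log2 scale set the size of a difference that could be seen, and they do not show that the depots were alike.

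The VAT endothelial libraries differed strongly from each other. Cd36 was at 4404 and 276 CPM, Fabp4 at 16924 and 1669 CPM and Gpihbp1 at 743 and 78.9 CPM, so the second VAT library was the lowest of all 6 for each of these 3 genes. Of its 106 endothelial nuclei, 73 were in the cluster led by Glycam1, where Cd36 was at 48.3 CPM, against 7918 CPM in the same cluster of the first VAT library and 8775 CPM in that of the second SAT library at 24 months. The ovary or oviduct markers of 660 CPM in these nuclei were given above, and their part was not tested. No member was called, with adjusted p of 0.999 throughout by edgeR, against 0% of 5498 genes by edgeR (144 genes and 0 members with an unadjusted p under 0.05) and 1 gene and 0 members by DESeq2. Without the first VAT library 41 genes were called, among them Cd36, lower in VAT at -4.49 (adjusted p = 0.0208).

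In macrophages of VAT, Cd36 was at 2741 and 378 CPM, on either side of the SAT values at 24 months, and the difference was -0.09 ± 0.78 (adjusted p = 0.997). None of the 6 genes tested was called by edgeR or DESeq2, against 0.0118% of 8478 genes, a single gene, by edgeR (367 with an unadjusted p under 0.05) and 6 genes by DESeq2. Acsl1, at 77.9 and 55.5 CPM in VAT against 69.8 and 250 CPM in SAT, had an unadjusted p of 0.031 (adjusted p = 0.996).

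FAPs of VAT had Lpl at 834 and 149 CPM, below both SAT libraries at 24 months, with a difference of -2.48 ± 0.96 (unadjusted p = 0.0295, adjusted p = 0.815). Slc27a1 was at 254 and 294 CPM in VAT FAPs, above both SAT values of 70.6 and 160 CPM, a difference of 1.18 ± 0.45 (unadjusted p = 0.0269, adjusted p = 0.815). Neither was called, nor was any other of the 7 genes tested, by edgeR or DESeq2, against 0% of 8255 genes by edgeR (479 with an unadjusted p under 0.05) and 23 genes by DESeq2. Without the first VAT library 411 genes were called, among them Lpl (-4.30) and Fabp4 (-3.10), both lower in VAT. The second VAT library had 5297 CPM of FAP markers and 2904 CPM of mesothelial markers in its FAP class, against 25129 to 40572 CPM and 17.4 to 235 CPM in the others. The part of these in the difference was not tested.

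**Figure D4:**
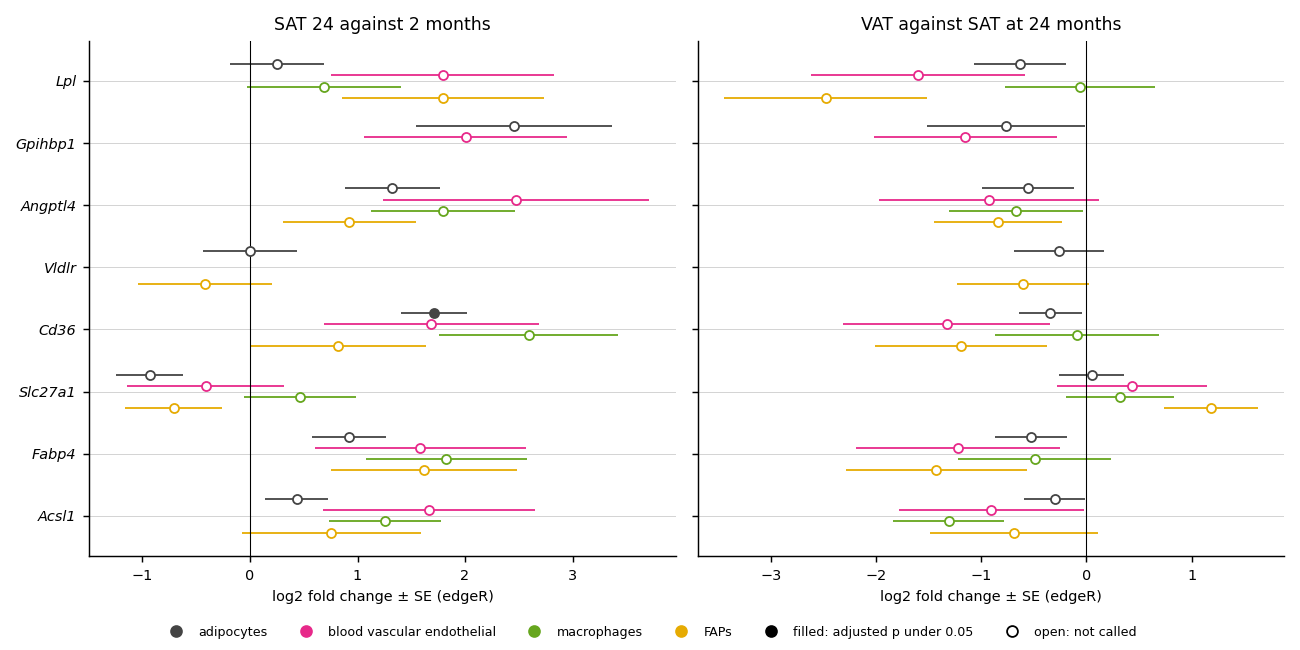
Log2 fold change with its SE on the x axis for each gene on the y axis, in SAT at 24 against 2 months on the left and in VAT against SAT at 24 months on the right, coloured by class of nuclei. Filled points passed the test, which is Cd36 in adipocytes with age alone (1.71 ± 0.31), and all other points are open.

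A list of 37 other genes of lipid uptake was examined beside the 8. In adipocytes 28 of them were tested between ages and 4 were called, 14.3% of those tested, 3 higher and 1 lower, near the background of 14.1%, and their median difference was -0.04. Cav1, which encodes the coat protein of caveolae, was at 209 and 361 CPM in the libraries at 2 months and 826 and 1245 CPM at 24 months, and rose by 2.01 ± 0.33 on the log2 scale (adjusted p = 0.0025 by edgeR). Sort1, a sorting receptor that also binds the lipase, rose by 1.17 ± 0.30, from 149 and 260 CPM to 376 and 455 CPM (adjusted p = 0.0235).

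Dbi, an acyl-CoA binding protein, rose by 1.37 ± 0.41, from 220 and 293 CPM to 329 and 868 CPM (adjusted p = 0.0441). The 1 lower gene was Lrp1, a receptor for remnant lipoproteins, which fell by 1.60 ± 0.27 from 1148 and 1434 CPM to 364 and 391 CPM (adjusted p = 0.0029). In each of these 4 genes the ages did not overlap. By group, 1 of 6 lipase partners, 1 of 5 lipoprotein receptors, 2 of 9 carriers and transporters and 0 of 5 acyl-CoA synthetases tested were called. Of 3 partners of Angptl4 that the study chose on these samples and young VAT (Sdc2, Sdc4 and Cdh11), 0 were called in adipocytes. The study scored them with CellChat as receptors in FAPs that receive Angptl4 from adipocytes. In FAPs 3 were tested between ages and 0 were called, against 0% of 8255 genes. These tests are of each receptor's level and do not bear on the pair scores.

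In VAT against SAT none of the 28 was called in adipocytes and 1 had an unadjusted p under 0.05, against 6.91% of all genes. In endothelial nuclei 11 of the 37 genes were tested, in macrophages 22 and in FAPs 19, and none was called in either comparison by edgeR. Those with an unadjusted p under 0.05 numbered, for age and depot in that order, 2 and 0 in endothelial nuclei against 8.69% and 2.62% of all genes, 4 and 3 in macrophages against 11.3% and 4.33%, and 2 and 1 in FAPs against 10.5% and 5.8%.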

How the data were processed

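Nuclei of 6 libraries were made with the Singleron GEXSCOPE kit and sequenced on an Illumina HiSeq X10. The authors deposited raw UMI counts per gene and barcode, made with Celescope on the GRCm39 build. Whether intronic reads or strand were counted is not given in the sources used here. Following the study's limits, a barcode was kept as a nucleus above 500 genes and 1000 UMIs and below 15% mitochondrial UMIs. They were clustered with an own Harmony step, 1000 variable genes, 30 components, 20 neighbours and Leiden resolution 2.0 (scanpy 1.11.5, leidenalg 0.10.2), and at 1.0 within immune and endothelial nuclei. Names came from marker lists, and clusters with mixed markers stayed unnamed, so classes may differ from the study's. Scrublet marked 0.052% to 0.562% of nuclei, too few to have worked, so a removal of the highest 8% of scores was added after seeing the data.

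UMIs were summed per class and library where at least 20 nuclei were present, and tested with edgeR 4.0.16 (R 4.3.3; TMM, filterByExpr, quasi-likelihood, all 3 groups in 1 fit, Benjamini-Hochberg over all genes tested), with DESeq2 1.42.0 as an alternative. The SE is the log2 fold change divided by the root of the F statistic. The script was tested on simulated data. Upper limits for a count of 0 use 3 counts and cover counting error only, and no interval is given for shares of nuclei, which are not replicates. The 8 genes were named by symbol, with the 37 related genes listed by role. For likeness, genes with at least 50 CPM in 1 sum were compared on log2(CPM + 10), and the 3 most like were named. The members and lists were chosen with earlier results of these data known.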

Additional observations from a re-analysis of the deposited data

How the results depend on the processing

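With 2 libraries per group, p-values measure only the spread between these libraries, whether biological or technical. With 1 group left at a single library, that library was assumed to vary like the others. Counting depth limited Gpihbp1 and Vldlr outside their leading classes, and 25 to 106 endothelial nuclei in 4 of the libraries limited that class. Apart from leaving out a library, 559 of 583 log2 fold changes of the 8 genes kept their direction and their side of the threshold, 16 passed it newly and 8 reversed. The causes of these changes were not tested.

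The number of the 8 genes called in adipocytes with age was 1, and it was 3 with DESeq2 (1325 genes called in all), 2 with library-size scaling (2016), 4 with no filter on low counts (2233), 4 with the replicate block (2121) and 2 in nuclei over 2000 UMIs (1310). Leaving out a library gave 0 (without the second SAT library at 2 months, 483 genes) to 4 (without the first at 24 months, 1666 genes). In endothelial nuclei with age, 1 of the 8 was called with no filter on low counts (82 genes in all), and 0 to 4 with a library left out (up to 103). For depot in endothelial nuclei it was 0 to 1 with a library left out (up to 41). In macrophages with age, 4 were called with no filter (239 genes in all) and 1 with only the 2 groups fitted (197). In FAPs between depots, 1 was called with no filter, Lpl (208 genes in all), and 0 to 2 with a library left out (up to 411). The replicate block changed no other count of the 8 genes. The labels' numbers were not shown to pair the libraries, since same-numbered libraries had deviations correlated at r = -0.09 in adipocytes between ages and 0.11 between depots, at -0.11 and -0.18 in macrophages, at 0.02 and -0.31 in endothelial nuclei and at -0.01 and -0.05 in FAPs. A crossed block, run where r was under -0.1, called 2 and 5 genes in macrophages for age and depot and 0 in endothelial nuclei between depots.

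The direction was reversed for Vldlr in adipocytes with age, at 0.0094 with DESeq2 size factors and 0.26 with no filter, and for Slc27a1 in macrophages at Leiden resolution 1.0, at -0.54 with age and -0.14 between depots. Between depots in macrophages, Lpl was at 0.056 with the replicate block, 0.050 with the crossed block and 0.34 without the highest 8% of Scrublet scores, under which Cd36 was at 0.0072.

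With 1 library left out, ranges on the log2 scale that crossed 0 were as follows. In adipocytes with age they were -0.67 to 0.90 for Lpl and -0.90 to 0.54 for Vldlr. In adipocytes between depots they were -1.24 to 0.28 for Lpl, -1.17 to 0.38 for Angptl4, -1.06 to 0.64 for Vldlr and -0.20 to 0.25 for Slc27a1. In endothelial nuclei they were -1.02 to 2.79 for Lpl and -0.99 to 0.13 for Slc27a1 with age, and between depots -3.07 to 1.28 for Lpl, -2.95 to 0.13 for Angptl4, -1.20 to 1.18 for Slc27a1 and -3.43 to 0.10 for Acsl1. In macrophages they were -1.03 to 1.41 for Lpl and -0.065 to 1.79 for Acsl1 with age, and between depots -1.33 to 1.65 for Lpl, -2.26 to 0.046 for Angptl4, -2.29 to 0.72 for Cd36, -0.83 to 0.94 for Slc27a1, -2.11 to 0.84 for Fabp4 and -1.86 to 0.0014 for Acsl1. In FAPs they were -0.28 to 1.49 for Angptl4, -1.02 to 0.31 for Vldlr, -0.0082 to 2.04 for Cd36 and -2.17 to 1.68 for Acsl1 with age, and -1.80 to 0.37 for Angptl4, -1.69 to 0.0098 for Vldlr and -1.73 to 2.25 for Acsl1 between depots.

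Over all genes, the number called in adipocytes was 1829 with age (1310 to 2433 over the alternatives, 483 to 1666 with a library left out) and 17 between depots (11 to 144, and 15 to 79). In endothelial nuclei it was 2 (0 to 82, and 0 to 103) and 0 (0 to 33, and 0 to 41), in macrophages 0 (0 to 239, and 0 to 1) and 1 (0 to 36, and 0 to 74), and in FAPs 0 (0 to 153, and 0 each time) and 0 (0 to 208, and 0 to 411). Nuclei over 2000 UMIs were not run for endothelial nuclei with age or for FAPs, where too few were left. The planned use of only the clusters named blood vascular is the class as reported, and adding unnamed endothelial clusters, chosen after seeing the data, changed no count of the 8 genes.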
